A study of Mus musculus with 30 samples.

Results

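Kcnab2 and its relatives encode the subunits of the Kv1 (Shaker-type) potassium channels, and they were read here by 10 probes of 9 genes, among the 41174 probes and 28146 distinct gene names on the array. The members were taken by family name: the 3 beta subunit genes Kcnab1, Kcnab2 and Kcnab3, and the 6 alpha subunit genes Kcna1 to Kcna6. Kcnab1 has 2 probes and each of the other 8 genes has 1. Kcnab2 itself was chosen by its genotype difference in these data, the signal of Per3-/- against wild-type mice, so its genotype values below are a description and carry no test. The other 8 genes were taken by name alone.

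Kv1 channels open when a neuron depolarises and let potassium out, which limits how often and how long it fires. The pore is built from alpha subunits, encoded by the Kcna genes, and the cytoplasmic beta subunits, encoded by the Kcnab genes, bind them from inside. Beta subunits belong to the aldo-keto reductase fold, help carry the channels to the axon and, in some pairings, speed their closing. In myelinated axons, optic nerve included, Kv1 channels sit beside the node of Ranvier under the myelin sheath.

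Adult male Per3-/- mice, in which the clock gene Per3 is disrupted by a cassette placed near its start, were compared with wild-type (WT) littermates on a C57Bl/6J background. All mice of both genotypes were kept through 17 cycles of 3.5 h of light and 3.5 h of dark and killed in the light of the last cycle. A block of hypothalamus around the optic chiasm was taken from 8 WT and 8 Per3-/- mice, and the whole eye from 7 WT and 7 Per3-/- mice. There is 1 array per mouse and tissue (eyes of WT mouse 2 and Per3-/- mouse 1 were not analysed here), and the arrays of the 2 tissues lie on separate slides, so tissue and slide cannot be told apart.

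Signals are log2 intensities minus the 75th percentile of their array, so 0 is that percentile and 1 unit is a doubling. The percentile lay between 1131 and 2207 intensity units, and 67.9% to 80.7% of the probes were well above background on an array. The tissue labels were checked against marker genes in WT mice: all 6 rod and cone markers were higher in the eye, and 6 of 7 hypothalamic markers were higher in the hypothalamus, Pmch (a lateral hypothalamic peptide) by at least 4770-fold in the main setting. Six6, which the eye also uses, was the exception. The Per3 probe lies at base 4401 of its transcript, outside the replaced part, and so does not check the genotype labels. It read -3.79 to -3.28 in WT and -4.21 to -3.59 in Per3-/- hypothalamus, and -3.55 to -2.57 and -4.12 to -2.90 in the eye. The genotypes overlapped in both tissues, though 7 of 8 Per3-/- hypothalami and 4 of 7 Per3-/- eyes lay below every WT value. Its difference was -0.51 ± 0.09 (SE; adjusted p = 0.067, limma) in the hypothalamus and -0.45 ± 0.23 (SE; unadjusted p = 0.0744, limma) in the eye. Neither passed the threshold after adjustment, and it was lower in Per3-/- mice on all 4 slides of each tissue. Of the 62 marker genes, 0 passed limma's test between genotypes in either tissue. At an unadjusted p under 0.05 there was 1 in each tissue (Prkca in the hypothalamus and Krt5 in the eye). Over all 41174 probes there were 1161 and 743 in these tissues. Dissection differed between mice: the pituitary marker sum of the hypothalamic block of Per3-/- mouse 1 was 9.60 on the log2 scale against -0.71 to 5.34 in the other blocks, the choroid plexus sum ranged from -1.53 to 3.59 over all blocks, and the oligodendrocyte sum of the eyes ranged from 2.80 to 6.24.

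The probes are shown by sequence where it tells what part of the transcript a value stands for, with positions on mm9 as the array files give them. The Kcna3 probe (chr3:106840513-106840572, plus strand) lies in the coding sequence of the pore, and the capitals mark the codons of the potassium selectivity filter. The first Kcnab1 probe, A_51_P320291, is also coding: its 60 bases are spread over 17242 bases of the genome (chr3:65106111-65123352, plus strand), so it crosses at least 1 exon junction. The Kcna2 probe (chr3:106908367-106908426, plus strand) is coding as well. The Kcnab2 probe (chr4:151765339-151765398, minus strand) starts at base 2984 of the transcript, past the coding part, and its first 30 bases are given.

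Kcna3, A_51_P198583: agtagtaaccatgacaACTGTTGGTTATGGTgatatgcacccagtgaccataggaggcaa
Kcna2, A_51_P393375: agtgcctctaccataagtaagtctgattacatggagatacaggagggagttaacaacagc
Kcnab1, A_51_P320291: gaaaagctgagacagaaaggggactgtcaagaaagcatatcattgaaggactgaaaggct
Kcnab2, A_52_P508962, first 30 bases: gacatgttaaccaagtgtttctgagaggtt

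The remaining probes are Kcna1 (chr6:126591727-126591786, minus strand), Kcna4 (chr2:107138074-107138133, plus), Kcna5 (chr6:126482573-126482632, minus), Kcna6 (chr6:126658424-126658483, minus), the second Kcnab1 probe A_52_P568895 (chr3:65182004-65182063, plus) and Kcnab3 (chr11:69146197-69146256, plus). Kcna1, Kcna5 and Kcna6 are neighbours on chromosome 6, and Kcna2 and Kcna3 on chromosome 3. Kcnab2 is the only one of the 9 genes on chromosome 4, where its probe lies 1.39 Mb from the Per3 probe. In the RefSeq gene order (GRCm38.p6) its nearest protein-coding neighbours are Chd5 and Nphp4.

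Kcnab2, the beta subunit Kv-beta-2 that is abundant in axons, was lower in Per3-/- mice in both tissues. In the hypothalamus the 8 WT mice read 2.44 at the lowest, 2.67 at the median and 2.88 at the highest, and the 8 Per3-/- mice 2.0, 2.20 and 2.42. Every Per3-/- hypothalamus was therefore below every WT hypothalamus, with the groups almost touching. In the eye the 7 WT mice read 1.77, 1.88 and 2.01, and the 7 Per3-/- mice 0.88, 1.12 and 1.30. Here too all Per3-/- values lay below all WT values, with a clear gap.

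The group means of Kcnab2 were 2.68 ± 0.13 (SD, n = 8) and 2.22 ± 0.13 (SD, n = 8) in WT and Per3-/- hypothalamus, a difference of -0.46 ± 0.07 (SE) or 1.38-fold. In the eye they were 1.88 ± 0.11 (SD, n = 7) and 1.11 ± 0.15 (SD, n = 7), a difference of -0.77 ± 0.08 (SE) or 1.71-fold. The eye value minus the hypothalamic one was -0.31 ± 0.10 (SE), given as a description since both enter the choice of Kcnab2. Each of the 4 slides per tissue carries mice of both genotypes, though eye slide 1 holds only 1 mouse of each. The within-slide difference lay between -0.57 and -0.27 for hypothalamus and between -0.85 and -0.70 for eye. Its negative sign on every slide follows from the lack of overlap and adds no support. Without the block of Per3-/- mouse 1 that held pituitary markers the hypothalamic difference was -0.43. These tissues are bulk samples, in which fewer cells of a type and less RNA per cell cannot be told apart.

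**Figure D1:**
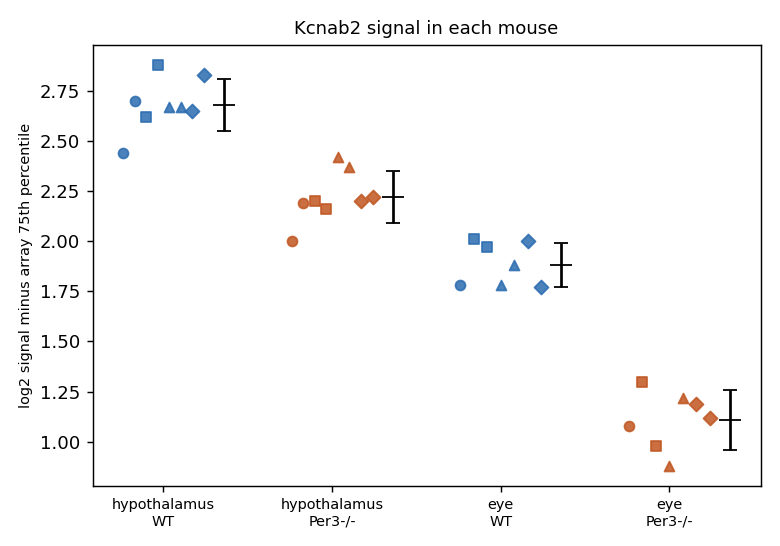
Kcnab2 signal (vertical axis, log2 intensity minus the array's 75th percentile) of each mouse in the 4 groups; marker shapes are the slides of a tissue, and the black bars are mean ± SD. The highest Per3-/- hypothalamus (2.42) sits just under the lowest WT hypothalamus (2.44), and in the eye the highest Per3-/- value (1.30) is well under the lowest WT value (1.77).

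Over all probes, 0.0437% had groups that did not overlap between genotypes in the hypothalamus and 0.0704% in the eye, and Kcnab2 was the only one of the 10 probes among them in either tissue. In limma 17 probes of the array, or 0.0413%, passed an adjusted p under 0.05 in the hypothalamus and 8, or 0.0194%, in the eye. Of these, 12 and 7 lie on chromosome 4, which holds 5.8% of the mapped probes, and 11 and 7 lie within 5 Mb of the Per3 probe. The Kcnab2 probe was among the called probes in both tissues. It was chosen for its difference in this contrast, so its place among these probes, and among those without overlap, is a description and no test. With the replicate number as a block 5 and 1 probes of the array were called, and Kcnab2 was among neither, with differences of -0.46 and -0.79. With normexp background correction it was not among the 10 hypothalamic probes called, at -0.44.

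The 5 probes whose signal varied most like Kcnab2 over the 30 arrays, as deviations from the tissue mean, all lie on chromosome 4. They belong to Prdm16 (a transcription factor of brown fat and of neural stem cells, Pearson r = 0.92), the transcript ENSMUST00000084120 (r = 0.91), Dnajc11 (a mitochondrial protein, r = 0.84), Rpl22 (a ribosomal protein, r = 0.83) and Fam132a (a secreted protein, r = 0.77). Among the 25222 probes searched, those well above background on every array, 6.14% lie on that chromosome. The 5 probes lie 0.977 to 4.96 Mb from the Per3 probe, and the Rpl22 probe is 0.0573 Mb from that of Kcnab2. Like Kcnab2, all 5 read lower in Per3-/- mice (log2 differences of -2.86 to -0.13 in hypothalamus and -4.14 to -0.25 in eye), so this likeness contains the genotype difference by which Kcnab2 was picked.

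With the mean of each genotype removed as well, a different set of 5 came first, on 5 chromosomes. These were Gm7293 (r = 0.78, chromosome 9), an unnamed probe on chromosome 5 (r = 0.78), 5730403B10Rik (r = 0.77, chromosome 16), Rtcd1 (an RNA cyclase, r = 0.75, chromosome 3) and Khsrp (an RNA-binding protein, r = 0.74, chromosome 17). Within genotypes the other Kv1 probes above background on every array had correlations with Kcnab2 from -0.46 (Kcna5) to 0.31 (Kcnab3). All these correlations are over 30 arrays that share tissue slides and scaling, and they are a description.

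Of the other 9 probes, 0 passed limma's test between genotypes in the hypothalamus (adjusted p = 0.99 for each) and 0 in the eye (adjusted p = 1 for each). At an unadjusted p under 0.05 there were 0 in the hypothalamus and 2 in the eye, Kcna1 and the first Kcnab1 probe. Over all 41174 probes there were 1161 in the hypothalamus and 743 in the eye. Hypothalamic differences lay between -0.15 and 0.06, with a median of -0.08 beside -0.01 over all probes. Those of the eye lay between -0.29 and 0.07, with a median of -0.07 beside 0 over all probes. The methods' t-test with Benjamini-Hochberg adjustment also called 0 of the 9 in each tissue. For the difference in genotype effect between tissues 0 of the 9 were called, where 0.00486% of all probes were, and the values ran from -0.22 (Kcna1) to 0.15 (Kcna2).

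**Figure D2:**
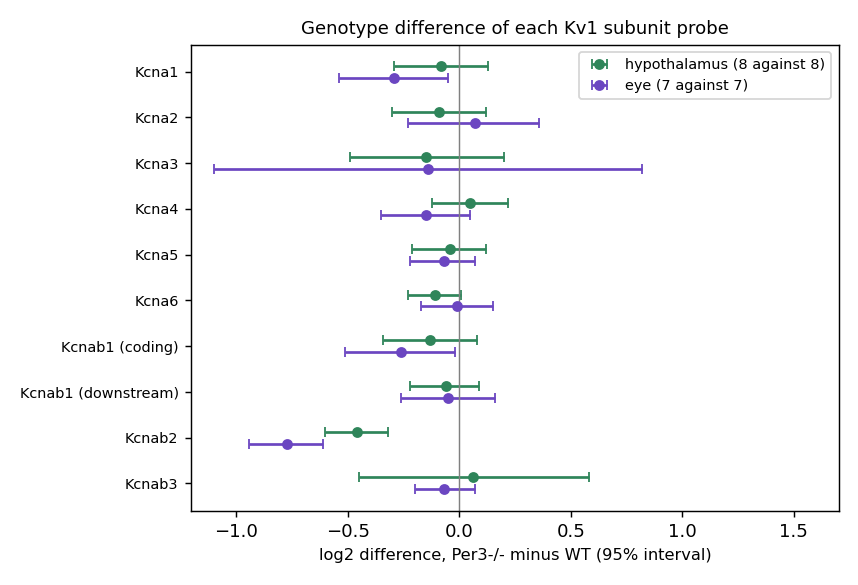
Difference between Per3-/- and WT mice on the log2 scale (horizontal axis, point and 95% interval) for the 10 Kv1 subunit probes in hypothalamus and eye. Kcnab2 is at -0.46 and -0.77, and the intervals of Kcna1 and of the coding Kcnab1 probe in the eye end just below 0 before adjustment over all probes.

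Among the alpha subunits, Kcna1 (Kv1.1, a channel of axons whose loss causes seizures in mice) had the lowest genotype difference of the other 9 probes in the eye. The WT eyes read 1.43, 1.56 and 2.07 (lowest, median, highest) and the Per3-/- eyes 0.95, 1.42 and 1.64, so the groups overlapped while 5 of 7 Per3-/- eyes lay below every WT eye. The difference was -0.29 ± 0.11 (SE), which did not pass limma's test after adjustment (adjusted p = 1, unadjusted p = 0.0224). In the hypothalamus WT mice ranged from 4.21 to 4.70 and Per3-/- mice from 3.82 to 4.53, a difference of -0.08 ± 0.10 (SE).

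Mbp and Cntn2 moved with Kcna1 in the extreme eyes. The eye of WT mouse 1 had the highest signal of Kcna1 (2.07) among the 14 eyes and also of Mbp (myelin basic protein, 5.49) and Cntn2 (an adhesion protein that anchors Kv1 channels beside the node, -1.22). The eye of Per3-/- mouse 2 had the lowest of all 3, at 0.95, 0.92 and -3.33. Without these 2 eyes the Kcna1 difference was -0.16. They hold the highest and the lowest Kcna1 value, so leaving them out shrinks the difference whatever the other genes do. The Kcna1 difference was negative on all 4 eye slides, from -1.12 to -0.06. The value of -1.12 is that of slide 1, which holds only these 2 eyes. Of the 6 oligodendrocyte markers 0 were called between genotypes in the eye, with differences from -0.75 to -0.07. Their sum ranged from 3.37 to 6.24 in WT and from 2.80 to 5.60 in Per3-/- eyes, and its part in the Kcna1 values was not tested.

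**Figure D3:**
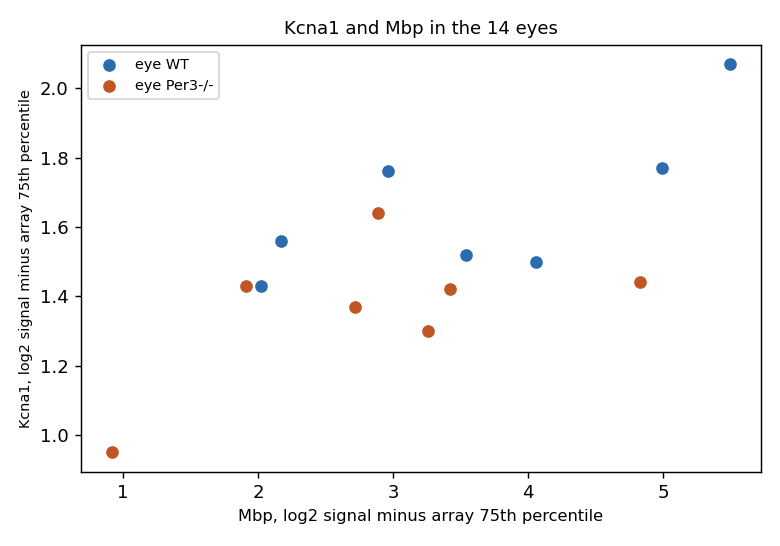
Kcna1 against Mbp (both log2 intensity minus the array's 75th percentile) in the 7 WT and 7 Per3-/- eyes, 1 point per mouse. WT mouse 1 is highest in both (Mbp 5.49, Kcna1 2.07) and Per3-/- mouse 2 lowest in both (0.92 and 0.95), while the 12 eyes between them spread over Mbp 1.91 to 4.99 with Kcna1 from 1.30 to 1.77.

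Kcna2 (Kv1.2, the usual axonal partner of Kv1.1) ranged from 0.22 to 0.69 in WT and from -0.16 to 0.59 in Per3-/- hypothalamus, a difference of -0.09 ± 0.10 (SE). In the eye it ranged from -4.57 to -3.89 and from -4.56 to -3.98, a difference of 0.07 ± 0.14 (SE). Kcna4 (Kv1.4, a rapidly inactivating channel) differed by 0.05 ± 0.08 (SE) and -0.15 ± 0.09 (SE), Kcna5 (Kv1.5, best known from heart and vessel muscle) by -0.04 ± 0.08 and -0.07 ± 0.07, and Kcna6 (Kv1.6) by -0.11 ± 0.06 and -0.01 ± 0.07. In each of these the genotypes overlapped in both tissues. Kcna6 was lower in Per3-/- mice on all 4 hypothalamic slides, with differences of -0.15 to -0.05, and its limma adjusted p was 0.99.

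Kcna3 (Kv1.3, known from T cells, microglia and some neurons) was dim. In the hypothalamus it was well above background on all 16 arrays, from -4.81 to -3.49 in WT and from -4.88 to -4.19 in Per3-/- mice, a difference of -0.15 ± 0.16 (SE). In the eye it was well above background on 2 of 7 WT and 1 of 7 Per3-/- arrays, which all lie on 1 slide, so most eye values are background signals. The eye of WT mouse 7 read -4.16, where the next WT eye read -6.24 and the lowest -7.61. The genotype difference in the eye was -0.14 ± 0.45 (SE) with that eye and 0.26 without it. The sum of the 6 microglia and T cell markers in that eye was 1.49, within the 1.31 to 1.75 of the WT eyes. The brighter microglia markers weigh most in that sum (WT eye means 0.18 for Csf1r and 0.09 for Aif1). It therefore says little about the dimmer T cell markers Cd3e (-1.58) and Cd3g (-5.36), and the part of such cells was not tested. Hypothalamic Kcna3 also moved with slide: slide 1 read -4.38 to -3.49 and slide 4 -4.88 to -4.68.

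Among the beta subunits, Kcnab1 (Kv-beta-1, which can close Kv1 pores with its own inactivation peptide) gave unlike levels at its 2 probes. In WT eyes the mean was -5.12 at the coding probe and 0.93 at the second, so the coding probe was much the dimmer. The coding probe read -5.48 to -4.67 in WT and -5.56 to -5.28 in Per3-/- eyes, a difference of -0.26 ± 0.11 (SE) with an unadjusted p of 0.0391 and an adjusted p of 1 in limma. The second probe, base 2848 of the same transcript, read 0.71 to 1.14 and 0.68 to 1.19, a difference of -0.05 ± 0.10 (SE). With normexp background correction the coding probe's eye difference changed sign to 0.21. In the hypothalamus the probes differed by -0.13 ± 0.10 (SE) and -0.06 ± 0.07 (SE).

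Kcnab3 (Kv-beta-3) stood out by its spread in the hypothalamus. WT mice read -0.22 at the lowest, 0.16 at the median and 0.72 at the highest, and Per3-/- mice -0.43, 0.06 and 1.47. The genotypes overlapped over nearly the whole WT range, with 2 Per3-/- mice below and 2 above all WT mice. The difference was 0.06 ± 0.24 (SE), the widest error of the hypothalamic members. Its SD within genotypes was 0.51, larger than that of 97.9% of the 27175 probes above background on every hypothalamic array, whose median SD was 0.13. In the eye the SD was 0.10, smaller than that of most probes, and values ran from -0.82 to -0.51 in WT and from -0.89 to -0.66 in Per3-/- mice.

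The extreme hypothalamic Kcnab3 values are set here beside slide and dissection. The 4 blocks on slide 4 read 0.36 to 1.47, while the blocks on the other 3 slides read -0.43 to 0.72. The block with the highest value, of Per3-/- mouse 7, had a choroid plexus marker sum of -1.53, at the low end of the blocks. The 2 lowest, of Per3-/- mice 1 and 4, had choroid plexus sums of 1.27 and 3.59, and the block of mouse 1 held the pituitary sum of 9.60. Other blocks did not follow this order: WT mouse 6 read 0.33 with a sum of 3.13, and WT mouse 1 read 0 with a sum of -1.35. All blocks on slide 4 had low choroid plexus sums, from -1.53 to -0.74, so slide and dissection cannot be told apart there. Of the 3 choroid plexus markers all differed by 0.34 to 1.07 between genotypes and 0 were called. The part of slide and dissection in the Kcnab3 spread was not tested.

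**Figure D4:**
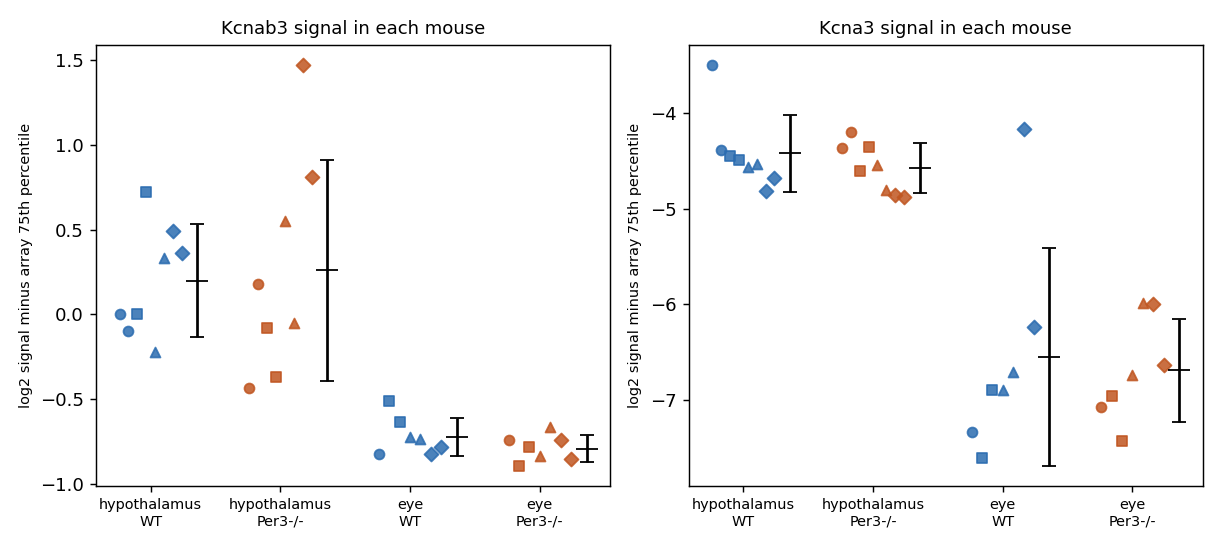
Kcnab3 (left) and Kcna3 (right) signal of each mouse (log2 intensity minus the array's 75th percentile) in the 4 groups; marker shapes are the slides of a tissue (circle 1, square 2, triangle 3, diamond 4) and black bars are mean ± SD. Kcnab3 spreads from -0.43 to 1.47 in Per3-/- hypothalamus and stays between -0.89 and -0.51 in all eyes; Kcna3 has 1 WT eye at -4.16 far above the others.

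The second comparison set the eye against the hypothalamus in WT mice, which the choice of the members did not use. All 10 probes passed limma's test with the mouse as a random block: 9 were higher in the hypothalamus, beside 33.6% of all probes, and 1, Kcna5, was higher in the eye, beside 42.1% of all probes. Since most probes differ between tissues, a call by itself sets no probe apart. The median difference of all probes was 0.156, and it moved from -0.072 with quantile normalization to 0.292 with the percentile over probes above background, so differences are read beside it. The median of the 10 members was -2.03. With quantile normalization 46.3% of all calls were higher in the eye, against 55.6% in the main setting and 61.2% with that percentile, and the members' directions did not change in any setting.

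Kcna2 had the largest difference of the members, at -4.71 ± 0.12 (SE; adjusted p = 9.2e-25, limma), or 26.1-fold, and only 0.503% of all probes were lower in the eye by more. With normexp it was -3.74 and with quantile normalization -5.04. It was well above background on all arrays of both tissues. Kcna6 was lower in the eye by 7.81-fold (-2.97 ± 0.06 (SE), adjusted p = 2.7e-26), Kcna1 by 6.53-fold (-2.71 ± 0.10 (SE), adjusted p = 6.6e-20) and Kcna4 by 5.03-fold (-2.33 ± 0.08 (SE), adjusted p = 1.4e-20). In these 4 genes every WT eye was below every WT hypothalamus, as it was for the 4 beta subunit probes, and 27% of all probes separated the tissues in this direction. Kcna3 was lower by -2.13 ± 0.32 (SE; adjusted p = 8.6e-07), a value that rests on background signals in 5 of 7 eyes, that overlapped between tissues through WT eye 7, and that was -0.68 with normexp and -2.53 without that eye.

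Kcna5 went the other way. WT hypothalamus read -1.04, -0.86 and -0.67 and WT eye 1.82, 2.09 and 2.16, a difference of 2.90 ± 0.07 (SE; adjusted p = 8.8e-25, limma) or 7.48-fold. All WT eyes lay above all WT hypothalami, as in 29.2% of all probes, and 93.9% of all probes had a lower difference. The 3 skeletal muscle markers were also higher in the eye, by 6.75 to 10.73, and their sum ranged from 6.87 to 8.13 in WT eyes and from -1.13 to -0.78 in WT hypothalamus. Their part in the Kcna5 difference was not tested.

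The beta subunits differed less between tissues than the alpha subunits, on the log2 scale and in the main setting. Kcnab2 was lower in the WT eye by 1.74-fold (-0.80 ± 0.07 (SE), adjusted p = 8.7e-12, limma) and Kcnab3 by 1.89-fold (-0.92 ± 0.19 (SE), adjusted p = 7e-05). The 2 Kcnab1 probes gave -1.91 ± 0.10 (SE; adjusted p = 2.1e-16) and -1.93 ± 0.08 (SE; adjusted p = 3.8e-19), and the first of them -1.03 with normexp. In Per3-/- mice the Kcnab2 difference between tissues was -1.11. For Kcnab2 the order of the 4 groups from the highest was thus WT hypothalamus, Per3-/- hypothalamus, WT eye and Per3-/- eye. The second and the third of these touched, with a lowest Per3-/- hypothalamus of 2.0 and a highest WT eye of 2.01.

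General neuron markers were lower in the eye as well: all 5 were, with differences of -3.73 to -1.60, and their sum ranged from 7.45 to 7.63 in WT hypothalamus and from 5.26 to 5.47 in WT eye. The 6 oligodendrocyte markers had differences of -4.97 to -2.79, with sums of 7.93 to 8.39 and 3.37 to 6.24. The part of these cell types in the tissue differences was not tested.

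**Figure D5:**
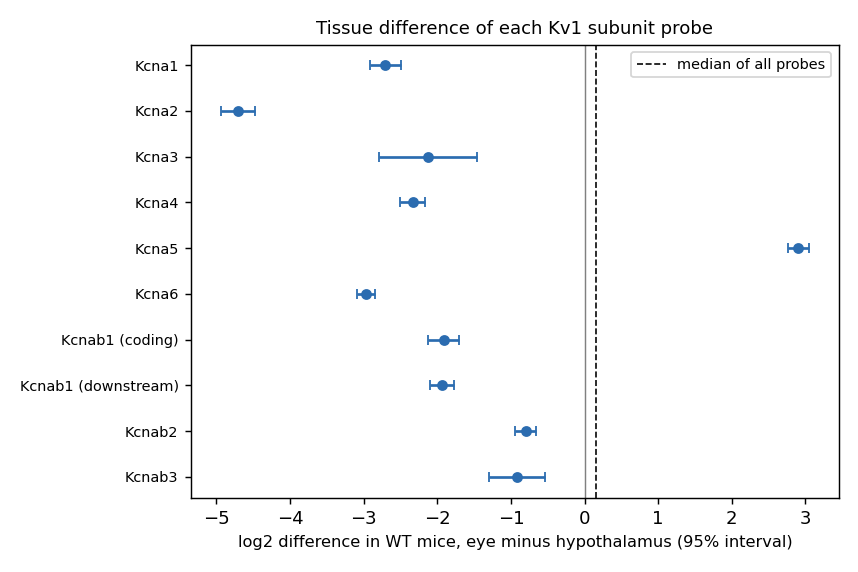
Difference between eye and hypothalamus of WT mice on the log2 scale (horizontal axis, point and 95% interval) for the 10 Kv1 subunit probes; the dashed line is the median of all probes (0.156). Kcna5 lies at 2.90 to the right, Kcna2 at -4.71 is furthest to the left, and Kcnab2 (-0.80) and Kcnab3 (-0.92) lie nearest to 0.

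The list of Kv1 partners held 23 genes, of which 21, mostly proteins that bind, anchor or cluster the channels and their ligands, were read. The other two, Kcna7 and Kcna10, are further Kv1 alpha subunits that matched no probe name and are not analysed here. In WT mice 15 of the 21 were higher in the hypothalamus, or 71.4% beside 33.6% of all probes, and 3 in the eye, or 14.3% beside 42.1%. Adam22, one of the 15, was above background on 0 arrays, so its call compares background signals. The largest differences were those of Cntn2 (-4.21 ± 0.20 (SE)), Lgi3 (-4.16 ± 0.09), a secreted ligand of the ADAM receptors, and Adam23 (-3.79 ± 0.09), one of those receptors. Higher in the eye were Cntnap1 (0.51 ± 0.18) and Cntnap2 (0.38 ± 0.05), adhesion proteins of the paranode and of the Kv1 cluster beside it, and Mapre1 (0.21 ± 0.05), which caps growing microtubules. Cntnap1 lost its limma call with quantile normalization (0.37, adjusted p = 0.078) and Mapre1 with normexp (0.15, adjusted p = 0.064). Between genotypes 0 of the 21 were called in either tissue. In the hypothalamus 1 (Lgi3, -0.16) had an unadjusted p under 0.05, beside 1161 of all 41174 probes.

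Of 42 listed subunits of other voltage-gated potassium channels 41 were read. In WT mice 26 (63.4%) were higher in the hypothalamus, beside 33.6% of all probes, and 11 (26.8%) in the eye, beside 42.1%. Kcnd2, a channel of dendrites, differed between eye and hypothalamus by -4.42 ± 0.08 (SE) on the log2 scale, and Dpp10, its auxiliary subunit, by -3.99 ± 0.07. Kcnh7 was not well above background in any eye and was at least 8.92-fold lower there in the main setting, while with normexp its log2 difference was -1.45, a smaller fold than this bound. Kcnv2, a silent subunit of photoreceptor channels, was not well above background in any hypothalamus and was at least 568-fold higher in the eye in the main setting, while with normexp its log2 difference was 7.10, again a smaller fold than the bound. Kcne2, a subunit of epithelial channels, was higher in the eye by 5.50 ± 1.15 (SE), with an SD of 3.16 in WT hypothalamus, where the choroid plexus sum varied from -1.53 to 3.13, and by 4.83 with normexp. Kcnh6 was higher by 2.63 ± 0.08. Between genotypes 0 of the 41 were called. In the hypothalamus 1 (Kcnc4, -0.15) had an unadjusted p under 0.05, beside 1161 of all 41174 probes.

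The aldo-keto reductases, the enzyme family whose fold the beta subunits share, were read in 16 of 17 listed genes. The pattern across tissues differed from that of the channels. In WT mice 11 (68.8%) were higher in the eye, beside 42.1% of all probes, and 2 (12.5%) in the hypothalamus, beside 33.6%. The median difference was 0.72. Akr1b7 was higher in the eye by 8.84 ± 0.15 (SE) on the log2 scale and Akr1c12 by 4.60 ± 0.08, and Akr1c18, not well above background in any WT hypothalamus, by at least 18.5-fold. With normexp these log2 differences were 7.24, 3.55 and, for Akr1c18, 2.61, which is a smaller fold than the bound. Akr1b10 (-1.37 ± 0.06) and Akr1a1 (-0.79 ± 0.04), an aldehyde reductase, were higher in the hypothalamus. Between genotypes 0 of the 16 were called. In the hypothalamus 1 (Akr1c14, 0.25) had an unadjusted p under 0.05, beside 1161 of all 41174 probes.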

How the data were processed

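RNA was measured on 1-colour (Cy3) Agilent arrays with probes of 60 bases. The authors extracted spots with Agilent Feature Extraction 10.7.1.1, and the processed signal they deposited is an intensity, background-subtracted and detrended, with no normalization between arrays per the file headers. The authors also deposited a table of log2 values, which match the log2 signal minus the array's 75th percentile, centred on each probe's median within a tissue. Eye probes were named through their probe names, since the eye files hold no gene names or positions.

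Here log2 of the processed intensity minus the array's 75th percentile over the 41174 non-control probes was used, and at most 91 flagged spots an array were left out. Genotypes were compared within each tissue, and tissues in 1 fit of the 30 arrays that took the mouse as a random effect (estimated correlation 0.059), with limma 3.58.1 in R 4.3.3. P-values are two-sided and Benjamini-Hochberg adjusted over all probes, with a threshold of 0.05. P-values measure only the spread between these mice. Where a probe was above background on no array of a group, the fold is a lower bound against, on each array, the higher of the dimmest signal above background and the probe's own. For other genes the probe of highest mean signal was used, and sums of markers are log2 of summed linear values. The scripts were tested on simulated data.

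The members and gene lists were chosen with earlier results of these data known. The text names all members, Per3, the 5 probes most like Kcnab2 in each of 2 ways, and of each list up to 3 genes in each direction with the largest tissue difference among those called. Replicate numbers were checked as pairs by the correlation of the deviations of same-numbered mice of the 2 genotypes. These correlations ran from -0.0293 to 0.315 in the hypothalamus (8 pairs) and from 0.109 to 0.627 in the eye (6 pairs). Only in the eye were all above 0.1. Same-numbered mice also share a slide within a tissue, and the part of the slide was not tested. The main genotype fits did not pair the mice in either tissue, and the replicate block was run as an alternative. The alternatives were quantile normalization, normexp (offset 50), a filter on dim probes, slide and replicate blocks, the methods' t-test, the deposited values, another scaling percentile and leaving out each mouse. Mouse numbers were shared between tissues, and the same mouse's deviations in both had correlations from -0.123 to 0.159. On arrays the number of mice limits the precision. Values of some marker genes are not reported here.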

Additional observations from a re-analysis of the deposited data

Results flagged for a closer look

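In 3 of the 40 sets of a member probe and a group, 1 mouse lay further from the rest than Dixon's 95% limit allows, where chance gives about 2. The Kcna3 signal of WT eye 7 was -4.16, above a next value of -6.24. The Kcna3 signal of WT hypothalamus 1 was -3.49, and without it the genotype difference there went from -0.15 to -0.01. The signal of the coding Kcnab1 probe in WT hypothalamus 8 was -2.86, and without it the difference went from -0.13 to -0.08. None of the 3 values changed a call.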

How the results depend on the processing

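The counts of member probes called were the same under every alternative and in every fit that left out 1 mouse. They were 0 of the 9 other than Kcnab2 between genotypes in each tissue and 0 for the difference in genotype effect between tissues. Between the tissues of WT mice 10 of 10 were called. Kcnab2 differed by -0.46 to -0.43 in the hypothalamus and by -0.80 to -0.77 in the eye over the alternatives, and by -0.50 to -0.43 and -0.80 to -0.73 leaving out 1 mouse each. With the replicate block its values were -0.46 and -0.79 and 0 of the other 9 were called in each tissue, while the counts over all probes fell from 17 to 5 and from 8 to 1. Without the mouse as a replicate block in the tissue fit, 10 of 10 were called. Uncalled genotype differences changed sign in 3 of 250 recomputed values in the hypothalamus (Kcnab3 and Kcna4) and 9 of 219 in the eye (Kcna6, Kcna3 and Kcnab1). The difference in genotype effect between tissues changed sign in 25 of 360 values, and the eye minus hypothalamus difference in WT mice in 0 of 380. The tissue difference of Kcnab2 ranged from -1.11 to -0.65. With all probes of a gene counted, 41 probes of Kv1 partners were called between tissues in place of 18 genes, since more probes were counted. Kcna3 in the eye, mostly below background, is limited by signal.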
